A study of Sus scrofa with 6 samples.

Results

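Of 8 listed genes of cholesterol synthesis and its control, 7 had a row in the table of 17627 genes from pig longissimus dorsi, a long back muscle: SREBF2, INSIG1, HMGCS1, IDI1, FDFT1, SQLE and DHCR7. The members were chosen by gene symbol. No row carried an identifier paired with SREBF1, so SREBF1 was not analysed here. The Wannanhua, a breed native to China, gave 3 libraries and the Yorkshire, bred for lean growth, another 3, all labelled as 5 months of age, although the series' design text speaks of piglets. The question of the series is which genes differ between the muscles of these breeds. No member is itself a lipoprotein receptor, so uptake is covered below through a list of other genes.

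Cells make cholesterol from acetyl-CoA through mevalonate, isoprenoid units and squalene, and close the rings of squalene to form sterols. The enzymes are switched on together by SREBF2, a transcription factor held in the endoplasmic reticulum with its escort SCAP. When sterols are plentiful, INSIG1 retains SCAP there, and when they run low the factor is released, and it also turns on the uptake of cholesterol from blood. Muscle uses cholesterol mainly in its surface membrane and the tubules that carry the signal to contract, and intermediates of the pathway also feed ubiquinone, dolichol and protein prenylation.

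None of the members passed the threshold for a breed difference. In limma, a linear model of log2(FPKM + 1) with p-values adjusted over all genes tested, 0 of the 5 members tested passed an adjusted p of 0.05, and 0 had an unadjusted p under 0.05. FPKM is fragments scaled for transcript length and library size. A comparison of FPKM between genes rests on the annotation used, which is not given. Over all 11791 genes tested, 360 passed (3.05%), of which those higher in Wannanhua were 1.76% and those lower 1.29% of genes tested, and 22.1% had an unadjusted p under 0.05 (14.6% higher and 7.53% lower in Wannanhua). In edgeR, run on reads recovered from the deposited scaled counts, 0 of 7 members passed, against 2.87% of all genes, and DHCR7 alone had an unadjusted p under 0.05, against 21.0% of all genes. SQLE and DHCR7 lay below limma's filter of 1 FPKM in 3 libraries. The median log2 difference, Wannanhua minus Yorkshire, was -0.24 over the 5 members tested and 0.12 over all genes. After quantile normalization these medians were -0.29 and 0.00. In edgeR they were -0.4 over 7 members and 0.01 over all genes tested there.

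The library called Yorkshire 2 was the highest of the 6 for 5 of the 7 members, and for 14.8% of all genes tested. It was singled out after its values were seen. Without it the median of the 5 tested members was -0.03, against 0.16 over all genes.

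Recovered reads ran from 16385602 to 21056699 per library. The labels do not say that the libraries came from separate animals, so p-values measure the spread between libraries, which may be technical. Of 9 muscle fibre markers 3 had a usable row, MYBPC1, PYGM and DES, and their sum ran from 9289 to 10775 FPKM, so fibre genes were abundant in every library. The differences of these markers had opposite signs, and MYBPC1 alone passed the threshold: MYBPC1 was 4.98 times higher in Wannanhua (limma adjusted p = 0.0295) and DES 1.97 times higher (0.0706), while PYGM was 2.82 times higher in Yorkshire (0.0666). In whole muscle, fewer cells of a type and less RNA per cell cannot be told apart.

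The members spanned a wide range of levels. FDFT1 averaged 77.6 ± 24.4 FPKM over the 6 libraries (SD), above 94.5% of all rows of the table, and IDI1 averaged 40.8 ± 7.41. HMGCS1 followed at 9.25 ± 0.93, INSIG1 at 3.96 ± 2.75 and SREBF2 at 3.63 ± 0.72 FPKM. DHCR7, at 0.62 ± 0.36, and SQLE, at 0.30 ± 0.12 FPKM, were the lowest, with SQLE above 20.6% of rows. The ranges over libraries overlapped between HMGCS1 and INSIG1, between INSIG1 and SREBF2, and between DHCR7 and SQLE, though for HMGCS1 and INSIG1 only through Yorkshire 2: in the other 5 libraries INSIG1 ran from 2.30 to 3.75 FPKM and HMGCS1 from 7.76 to 10.6 FPKM. The consecutive enzymes FDFT1 and SQLE stood far apart in every library, with an FDFT1 level in FPKM 183 to 499 times that of SQLE. The ratio of 499 was in Yorkshire 1, where SQLE had 7 reads. HMGCS1 was the steadiest member, with an SD of 10% of its mean, and INSIG1 had the largest SD, at 69.4%, which rested on Yorkshire 2. Without that library the SD of INSIG1 was 20% of its mean and that of DHCR7, at 55.3%, was the largest.

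**Figure D1:**
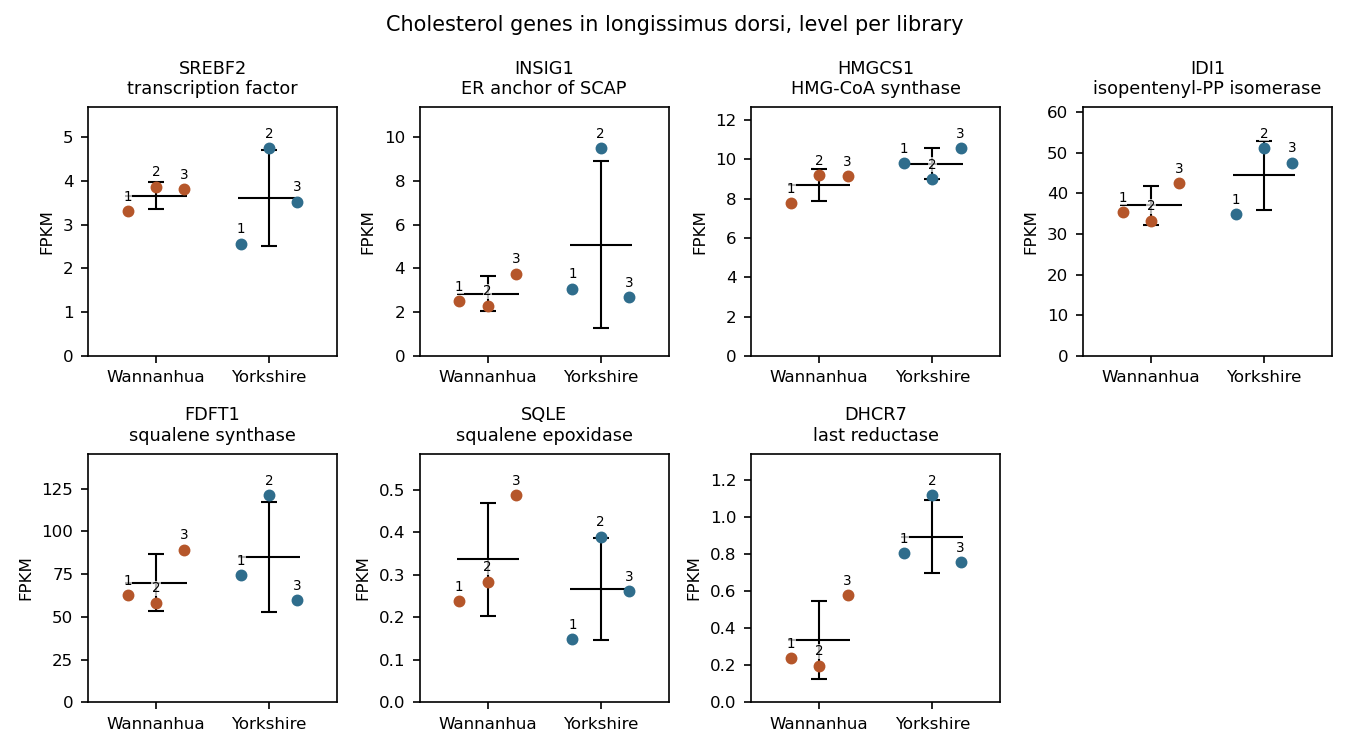
Level of each member in FPKM (linear axis from 0, one panel per gene) in the 3 Wannanhua and 3 Yorkshire libraries, with replicate numbers beside the points; the long bar is the breed mean and the whiskers its SD. INSIG1 stands at 9.47 in Yorkshire 2 and at 3.75 or less elsewhere, and DHCR7 is the member whose breeds do not overlap.

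Among the regulators, SREBF2 (ENSSSCG00000026092), which drives the sterol enzymes, had levels of 3.31, 3.87 and 3.80 FPKM in Wannanhua libraries 1, 2 and 3. Its levels in Yorkshire libraries 1, 2 and 3, the order used throughout, were 2.56, 4.74 and 3.52 FPKM. The Yorkshire libraries thus held both the lowest and the highest level, on either side of all Wannanhua libraries. The log2 difference was 0.04 ± 0.21 (SE; 95% interval -0.46 to 0.54; limma adjusted p = 0.929), and its sign turned in edgeR (-0.03) and after quantile normalization (-0.11). It was -0.13 without Yorkshire 1 and 0.21 without Yorkshire 2.

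INSIG1 (ENSSSCG00000016420), the anchor of SCAP and itself a target of SREBF2, had Wannanhua levels of 2.5, 2.30 and 3.75 FPKM. The Yorkshire levels were 3.06, 9.47 and 2.69 FPKM. Only Yorkshire 2 lay outside the Wannanhua range, on 408 reads against 95 to 146 in the other 5 libraries. Its INSIG1 level was 3.52 times the median of those 5, a ratio exceeded by 1.26% of all genes tested. The breed difference was -0.51 ± 0.40 on the log2 scale (SE; 95% interval -1.44 to 0.43; limma adjusted p = 0.491). Without Yorkshire 2 it was -0.03 (limma adjusted p = 0.961). By edgeR, with all libraries kept, the difference was -0.95 (edgeR adjusted p = 0.273).

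HMGCS1 (ENSSSCG00000016872), which makes HMG-CoA at the entry to the mevalonate pathway, varied little, with Wannanhua levels of 7.76, 9.19 and 9.16 FPKM. Yorkshire libraries had 9.81, 9.0 and 10.6 FPKM of HMGCS1. The breeds overlapped through Yorkshire 2, the lowest Yorkshire library for this gene, which was not raised there (0.98 times the median of the other 5). The log2 difference was -0.15 ± 0.16 (SE; 95% interval -0.54 to 0.23; limma adjusted p = 0.618). By edgeR it was -0.40 (edgeR adjusted p = 0.264). In CPM, recovered reads scaled to library size, the highest library was Wannanhua 2, at 50.7, and the lowest Wannanhua 1, at 37.7, so the order of libraries depended on the scale.

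IDI1 (ENSSSCG00000029066), which interconverts the isoprenoid building blocks, was measured at 35.4, 33.2 and 42.5 FPKM in the Wannanhua libraries. Its Yorkshire levels were 34.9, 51.0 and 47.5 FPKM. Yorkshire 2 and 3 lay above all Wannanhua libraries and Yorkshire 1 among them. The log2 difference was -0.25 ± 0.20 (SE; 95% interval -0.73 to 0.23; limma adjusted p = 0.512). It was -0.41 without Yorkshire 1 and -0.14 without Yorkshire 2. By edgeR, with all libraries kept, the difference was -0.38 (edgeR adjusted p = 0.307). IDI2, a close relative of IDI1, had no named row, and whether reads of similar genes were split is not given here.

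FDFT1 (ENSSSCG00000026044), squalene synthase, makes the step that commits the pathway to sterols. Wannanhua libraries had 62.8, 58.2 and 89.2 FPKM of FDFT1. Levels in the Yorkshire libraries were 74.4, 121 and 59.8 FPKM. Yorkshire 2 was again the highest, at 1.93 times the median of the other 5 libraries, while Yorkshire 3 lay within the Wannanhua range. The log2 difference was -0.24 ± 0.30 (SE; 95% interval -0.94 to 0.46; limma adjusted p = 0.675), and it turned to 0.05 without Yorkshire 2. By edgeR, with all libraries kept, the difference was -0.41 (edgeR adjusted p = 0.456).

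SQLE (ENSSSCG00000005970), squalene epoxidase, which makes the substrate for ring closure, was barely detected, at 0.24, 0.28 and 0.49 FPKM in the Wannanhua libraries. Yorkshire libraries read 0.15, 0.39 and 0.26 FPKM for SQLE. These levels rest on 7 to 22 reads per library. The exact Poisson 95% interval of the 7 reads in Yorkshire 1 was 2.81 to 14.4, and that of the 22 reads in Wannanhua 3 was 13.8 to 33.3; such intervals cover counting error only. The breeds overlapped and no difference in SQLE was detected (log2 difference 0.08, exact two-sided permutation p = 0.60; edgeR adjusted p = 0.879).

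DHCR7 (ENSSSCG00000021181), the reductase that forms cholesterol from 7-dehydrocholesterol, was the member whose breeds did not overlap. Its Wannanhua levels were 0.24, 0.20 and 0.58 FPKM. The Yorkshire libraries read 0.81, 1.12 and 0.76 FPKM. Every Yorkshire library lay above every Wannanhua library, on 15, 23 and 17 reads in Yorkshire and 5, 4 and 11 in Wannanhua. The log2 difference was -0.51 on the log2(FPKM + 1) scale, with an exact two-sided permutation p of 0.10, the smallest that 3 against 3 libraries allow. The edgeR log2 fold was -1.50 (adjusted p = 0.118), and its filter was met by all 3 Yorkshire libraries and 1 Wannanhua library, so DHCR7 entered that test mainly through the breed where it was higher. Among all genes tested, the breeds did not overlap in 29.9%, with 9.63% lower and 20.3% higher in Wannanhua.

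**Figure D2:**
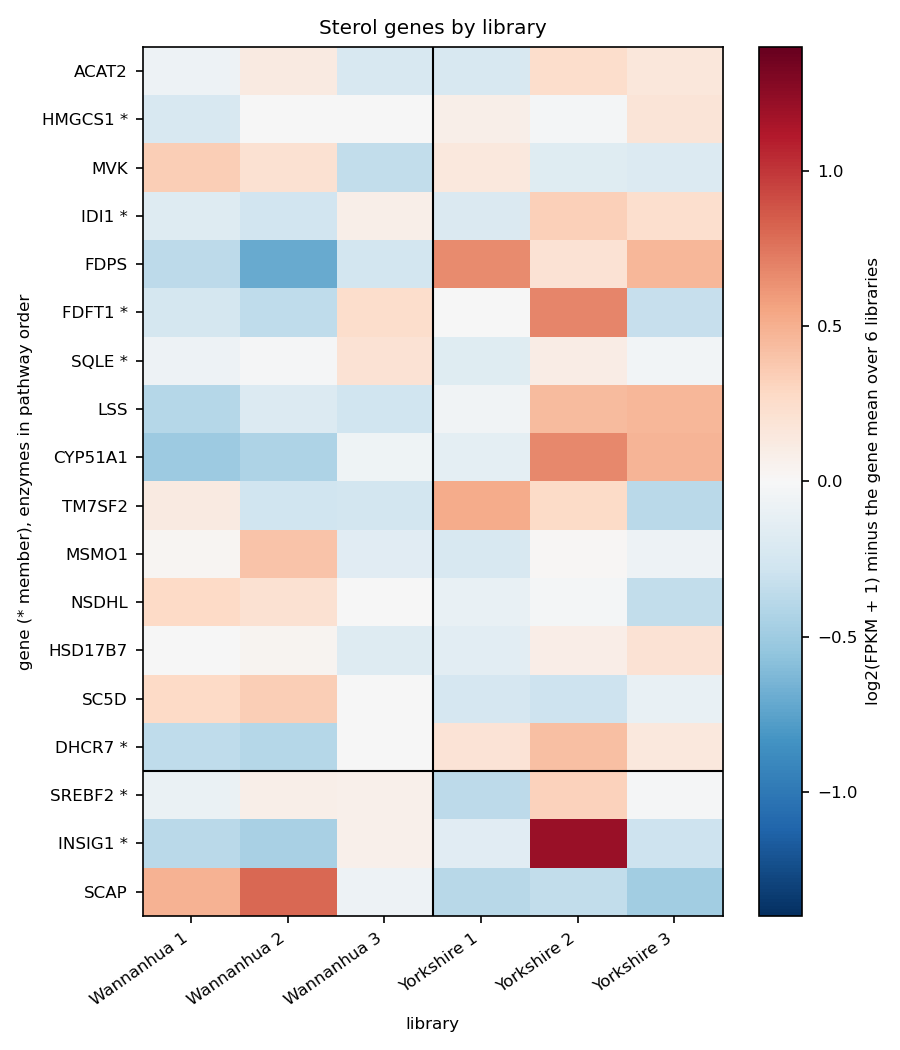
Level of the 7 members (starred) and of other sterol genes in each library (columns, Wannanhua left and Yorkshire right of the line), as log2(FPKM + 1) minus the gene's mean over the 6 libraries; enzymes are in pathway order and SREBF2, INSIG1 and SCAP are below the line. INSIG1, FDFT1 and CYP51A1 are highest in Yorkshire 2, whereas SC5D and SCAP are not raised there.

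The other enzymes of the pathway varied in both directions. Of 18 listed, 12 had a row and all 12 were tested, with a median log2 difference of -0.11. By limma 0 passed. At an unadjusted p under 0.05 stood 4 that were lower in Wannanhua and 1 that was higher (over all genes 7.53% and 14.6%). In edgeR 0 passed as well, with 4 at an unadjusted p under 0.05 (21.0% of all genes). The breeds did not overlap in 3 that were lower in Wannanhua, FDPS and LSS among them, and in 2 that were higher, NSDHL and SC5D (over all genes 9.63% and 20.3%). FDPS, SCAP, MBTPS1, NPC1 and GPAM are named below by a rule on their p-values in these data, and the other genes of this and the next paragraphs were chosen after their values were seen.

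FDPS, which joins isoprenoid units into farnesyl diphosphate between IDI1 and FDFT1, had Wannanhua levels of 8.87, 6.83 and 9.71 FPKM. All its Yorkshire levels, 19.2, 13.7 and 16.6 FPKM, lay above those. Its log2 difference was -0.89 ± 0.20 (SE; limma adjusted p = 0.0640; edgeR adjusted p = 0.0678), short of the threshold. Its neighbours in the pathway, IDI1 and FDFT1, overlapped between breeds.

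LSS, which closes squalene epoxide into lanosterol, had a mean of 0.94 ± 0.13 FPKM in Wannanhua libraries against 1.93 ± 0.55 in Yorkshire ones (SD, n = 3; limma adjusted p = 0.152). It reached limma's filter level of 1 FPKM in every Yorkshire library but in Wannanhua 2 alone among the Wannanhua ones. CYP51A1, which demethylates lanosterol, overlapped between breeds and was highest in Yorkshire 2, at 5.78 FPKM against 1.99 to 4.93 elsewhere. SC5D, a desaturase just before DHCR7, went the other way, with Wannanhua levels of 3.74, 3.97 and 2.91 FPKM against Yorkshire levels of 2.34, 2.20 and 2.65 (limma adjusted p = 0.224).

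**Figure D3:**
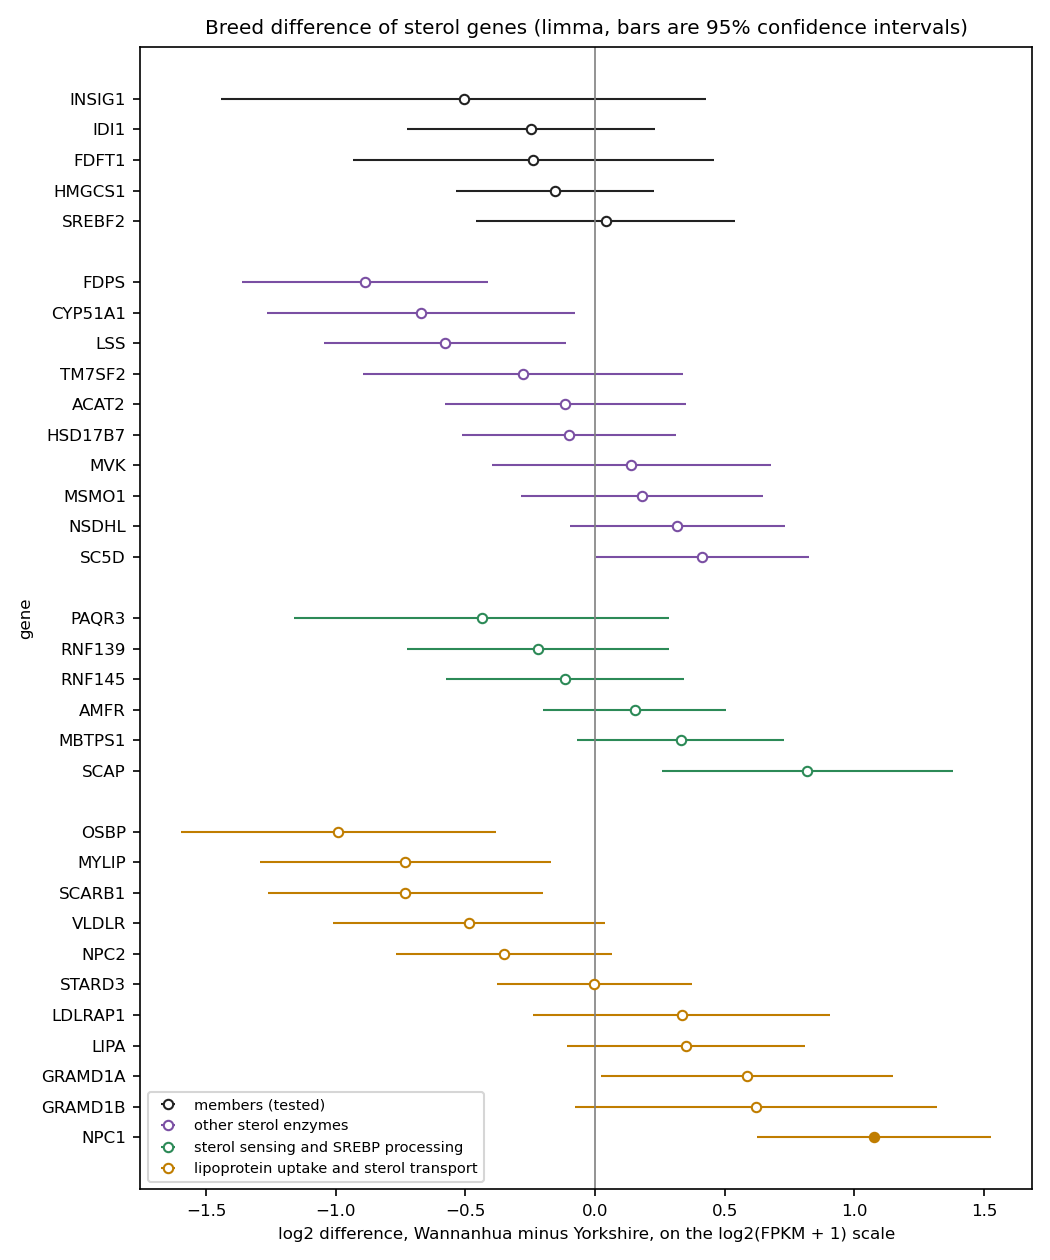
Breed difference in log2(FPKM + 1), positive where Wannanhua was higher (horizontal axis), for tested genes of the members and 3 lists, with limma's 95% confidence interval as the bar; a filled point marks an adjusted p under 0.05. NPC1 is the filled point, at 1.08, and all 5 member intervals span 0; the sign of SREBF2 turns in edgeR and after quantile normalization.

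Of 11 genes that sense sterols or process SREBF2, 6 had a row and were tested, with a median of 0.02. By limma and by edgeR 0 passed, with 1 at an unadjusted p under 0.05 in each, SCAP. Over all genes that share was 22.1% in limma and 21.0% in edgeR. SCAP, the escort that INSIG1 retains, read 9.26, 11.8 and 5.98 FPKM in the Wannanhua libraries against 4.58, 4.74 and 4.20 in the Yorkshire ones. The breeds did not overlap (log2 difference 0.82 ± 0.24 SE; limma adjusted p = 0.109), and without Wannanhua 3 it was 1.06 (limma adjusted p = 0.0386). With any other library left out it was 0.62 to 0.85 (limma adjusted p = 0.151 to 0.290). MBTPS1, the site-1 protease that makes the opening cut in SREBF2, had a mean of 10.9 ± 0.51 FPKM in Wannanhua libraries against 8.55 ± 1.23 in Yorkshire ones (SD, n = 3; limma adjusted p = 0.302).

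Of 18 genes of lipoprotein uptake and sterol transport, 14 had a row and 12 were tested, with a median of 0.07. In limma 1 passed, higher in Wannanhua, and 0 lower. At an unadjusted p under 0.05 stood 2 that were higher and 3 that were lower (over all genes 14.6% and 7.53%), and edgeR had 8 of 12 (21.0% of all genes). The breeds did not overlap in 2 that were higher and 4 that were lower (over all genes 20.3% and 9.63%). The gene that passed was NPC1, which exports lipoprotein cholesterol from lysosomes. Wannanhua libraries had 3.22, 4.45 and 4.44 FPKM of NPC1. Yorkshire libraries had less, 1.11, 1.32 and 1.72 FPKM, with no overlap. The log2 difference was 1.08 ± 0.19 (SE; limma adjusted p = 0.0403; edgeR adjusted p = 0.0216). The NPC1 call was lost without any 1 library (Wannanhua 1, 2 or 3, or Yorkshire 1, 2 or 3), with limma adjusted p = 0.0602 to 0.142 and log2 differences of 0.99 to 1.2. It was also lost with the replicate block (limma adjusted p = 0.0522) and without a filter (0.0667), both with the log2 difference still at 1.08. OSBP, a sterol-binding transfer protein, went the other way, with Wannanhua levels of 12.6, 13.6 and 24.2 FPKM against Yorkshire levels of 29.4, 33.9 and 36.0. Its breeds did not overlap (log2 difference -0.99 ± 0.26 SE; limma adjusted p = 0.0872; edgeR adjusted p = 0.0625), and without Wannanhua 3 it passed (-1.27; limma adjusted p = 0.0192). MYLIP, which marks lipoprotein receptors for breakdown, was also lower in FPKM in every Wannanhua library (log2 difference -0.73 ± 0.24 SE; limma adjusted p = 0.137). In CPM its breeds overlapped, with Wannanhua 2 at 27.1 and Yorkshire 2 at 26.3.

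No receptor gave a call. SCARB1, the HDL receptor, had a mean of 2.28 ± 0.61 FPKM in Wannanhua libraries against 4.45 ± 1.0 in Yorkshire ones (SD, n = 3) without overlap (limma adjusted p = 0.123). VLDLR, a receptor of triglyceride-rich lipoproteins and far more abundant than SCARB1, ranged from 61.6 to 65.4 FPKM in the Wannanhua libraries. Its Yorkshire levels were 64.9, 110 and 97.6 FPKM (limma adjusted p = 0.251).

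**Figure D4:**
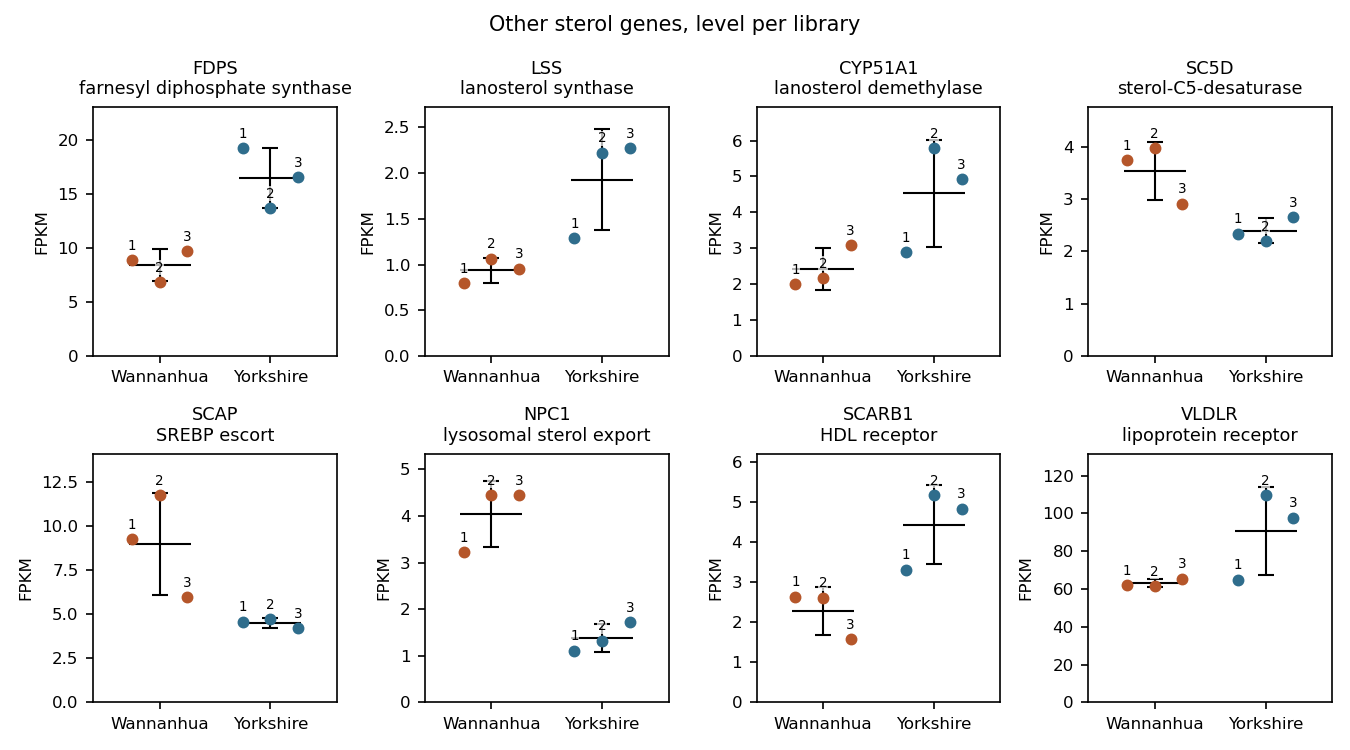
Level in FPKM (linear axis from 0) of 8 other sterol genes in each library, numbered by replicate, with the breed mean and SD as bar and whiskers. NPC1 and SCAP are higher in every Wannanhua library, FDPS, LSS and SCARB1 are higher in every Yorkshire library, and CYP51A1 and VLDLR are highest in Yorkshire 2, at 5.78 and 110; of these 8 genes NPC1 passed the threshold.

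SREBF1 itself was not analysed, and its activity was not tested. A list of genes taken as its targets in fatty acid synthesis held 16 genes, 13 with a row and 11 tested, with a median of 0.31. In limma 1 was higher past the threshold, GPAM, and 0 lower. Of the 11, 9 had a positive difference, against 7387 of 11791 over all genes. In edgeR the differences of SCD and ELOVL5 turned negative (-0.03 and -0.13). At an unadjusted p under 0.05 in limma stood 3, and in 4 the breeds did not overlap, all higher in Wannanhua (over all genes 14.6% and 20.3%). By edgeR 5 of 12 had an unadjusted p under 0.05 (21.0% of all genes). Among these 5, FADS1, below limma's filter, was lower in Wannanhua (edgeR log2 fold -1.23). GPAM, which starts the building of triglycerides, read 41.3, 31.9 and 9.74 FPKM in the Wannanhua libraries against 2.95, 2.77 and 3.94 in the Yorkshire ones. Every Wannanhua library was above every Yorkshire library (log2 difference 2.56 ± 0.48 SE; limma adjusted p = 0.0422; edgeR adjusted p = 0.0264). The GPAM call was lost without Wannanhua 1 or 2 or Yorkshire 1, 2 or 3 (limma adjusted p = 0.143, 0.145, 0.0856, 0.112 and 0.139), with log2 differences of 2.17 to 2.67. It was also lost after quantile normalization (log2 difference 2.45, limma adjusted p = 0.0509), and without a filter (0.0710) and with the replicate block (0.0562), both with the log2 difference at 2.56. Without Wannanhua 3 the difference was 3.15 (limma adjusted p = 0.0038). ACLY, which makes cytosolic acetyl-CoA, also the starting point of sterols, had a mean of 4.85 ± 0.64 FPKM in Wannanhua libraries against 2.06 ± 1.11 in Yorkshire ones (SD, n = 3), without overlap (limma adjusted p = 0.120). LPIN1, a phosphatase of triglyceride synthesis, was likewise higher in every Wannanhua library (log2 difference 0.67 ± 0.21 SE; limma adjusted p = 0.124). FASN, fatty acid synthase, one of the 2 with a negative difference, read 3.66, 3.77 and 2.81 FPKM in the Wannanhua libraries against 0.89, 9.95 and 6.43 in the Yorkshire ones (limma adjusted p = 0.807). Like SREBF2, FASN was lowest in Yorkshire 1 and highest in Yorkshire 2. Over all genes tested, Yorkshire 1 was the lowest library for 36.3% and Yorkshire 2 the highest for 14.8%.

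Markers of other cells also varied between libraries, not all in the same way. The sum of 4 adipocyte markers (of 8 listed: PLIN1, LIPE, CIDEC and PPARG) was 4.95 FPKM in Yorkshire 1, against 17.5 to 26.4 in the other 5 libraries. The sum of 5 fibroblast markers of 6 was 766 FPKM in Yorkshire 2, against 281 to 525 elsewhere, with COL3A1 at 319 FPKM there and 79.1 to 226 elsewhere. Macrophage markers, 5 of 7, summed to 24.0 FPKM in Yorkshire 2 and 11.8 to 17.7 elsewhere. Slow-fibre markers, 4 of 6, summed to 5578 FPKM in Yorkshire 2, 9978 to 17013 in the other Yorkshire libraries and 10108 to 41047 in Wannanhua. The sum of 3 Schwann cell markers of 7, cells that make much cholesterol for myelin, was 7.80 to 11.9 FPKM in Wannanhua and 1.09 to 5.78 in Yorkshire. Endothelial markers, 4 of 6, summed to 49.7 to 71.5 FPKM in Wannanhua and 51.1 to 60.7 in Yorkshire. The listed T cell markers, 3 of 4 (CD3D, CD2 and PTPRC), summed to 1.90 to 2.38 FPKM in Wannanhua and 3.17 to 4.49 in Yorkshire. PTPRC, which is not confined to T cells, made up 1.12 to 1.42 FPKM in Wannanhua and 1.54 to 2.84 in Yorkshire. In CPM, CD3D and PTPRC overlapped between breeds and CD2 did not. Red cell markers, 3 of 4, summed to 43.7 to 144 FPKM in Wannanhua and 15.8 to 93.9 in Yorkshire. HBM, a red cell globin, had 6 reads in Wannanhua 1, its highest library, so its 0 in Yorkshire 2 and 3 is near the floor. The part of these cells in the values above was not tested.

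Among the 5 genes whose levels most resembled the mean of the 7 members over the 6 libraries were CCDC126, PDZD9, SCARNA12 and SHLD2, with Pearson r from 0.975 to 0.987. The 5 were the highest of 7238 candidates over only 6 libraries that share the Yorkshire 2 peak, so the likeness is a description. None of them belongs to the lists of sterol genes. CCDC126, for example, stood at 5.53 FPKM in Yorkshire 2 and 2.10 to 3.28 elsewhere.

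**Figure D5:**
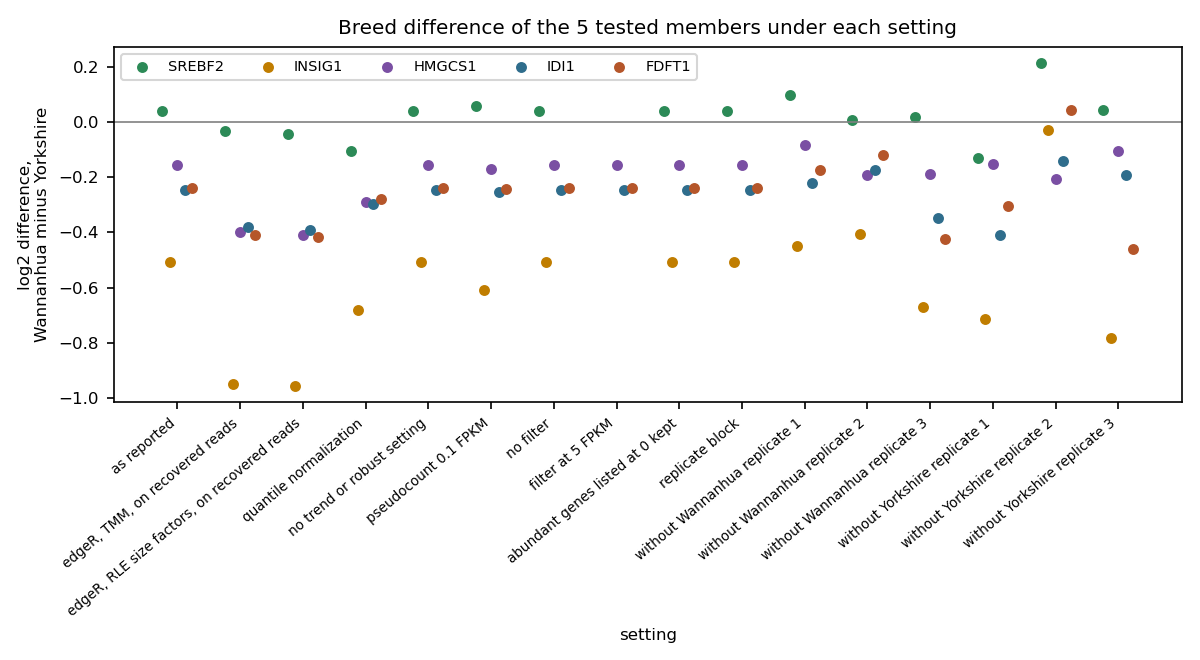
Log2 difference, Wannanhua minus Yorkshire (vertical axis), of the 5 tested members as reported and under each of 15 other settings (horizontal axis; INSIG1 and SREBF2 have no value at the 5 FPKM filter). SREBF2 lies on either side of 0, INSIG1 moves from -0.51 as reported to -0.03 without Yorkshire 2, FDFT1 lies above 0 without Yorkshire 2 alone, and HMGCS1 and IDI1 stay below 0 in all settings shown.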

How the data were processed

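Poly-A RNA was selected and sequenced as paired-end libraries with a kit that does not mark strand, per the labels' protocols, so antisense reads cannot be told apart. CASAVA 1.7, TopHat2 2.0.6 and build Sscrofa10.2 appear in the submitters' processing notes, without the counter or the annotation. The authors deposited FPKM per gene and library, and a column headed as count. Those deposited count columns were not whole and were treated as a signal, reads times a library factor. Between 99.71% and 99.82% of values above 0 were whole multiples of 1 step (within 0.01 of a read or a relative 1e-05), which gave the recovered reads. A search from the smallest value found the step in Yorkshire 1 alone.

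Gene symbols were looked up by Ensembl identifier, which matched 10384 of 17627 (58.9%). Libraries were grouped by breed label. The test was limma 3.58.1 in R 4.3.3 on log2(FPKM + 1) with trend and robust settings, for genes at 1 FPKM or more in 3 libraries, with Benjamini-Hochberg adjustment over all 11791 and a threshold of 0.05. Fold changes on this scale understate those of low genes. Left out were 7 abundant genes listed at 0 in a library (a scaled count of 10000 or more elsewhere). edgeR 4.0.16 (quasi-likelihood, TMM) ran on recovered reads as an alternative. Both tests were tested on simulated data.

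The members and lists were chosen with earlier results of these data known. Genes named were the members, up to 4 called genes of each list or else the 2 with the smallest p, and the 5 most like the members; a few of these are not reported here. The labels do not say that replicate numbers pair the libraries, so the test was unpaired and a replicate block was an alternative.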

Additional observations from a re-analysis of the deposited data

How the results depend on the processing

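Alternatives were edgeR with TMM or RLE scaling, quantile normalization, no trend or robust setting, a pseudocount of 0.1, no filter, a filter at 5 FPKM, the abundant genes listed at 0 kept, the replicate block, and each library left out. Members past the threshold numbered 0 in all 15. The log2 difference of SREBF2 turned to -0.034 (edgeR, TMM), -0.0431 (edgeR, RLE) and -0.11 (quantile normalization), and with a library left out ran from -0.13 (without Yorkshire 1) to 0.214 (without Yorkshire 2). That of FDFT1 ran from -0.459 (without Yorkshire 3) to 0.0454 (without Yorkshire 2). HMGCS1, IDI1 and INSIG1 stayed below 0 wherever they were tested. The count of 360 genes (57.8% higher) became 69 without a filter and 205 with the replicate block, and 11 to 504 with a library left out (36, 19 and 504 without Wannanhua 1, 2 and 3; 149, 46 and 11 without Yorkshire 1, 2 and 3); quantile normalization called 338 (40.8% higher), edgeR 375 (49.1% higher) with TMM and 395 (48.6% higher) with RLE. With a library left out, 0 to 1 passed in the lists of uptake, fatty acid synthesis, sterol sensing and other mevalonate products, and the 1 was in each case without Wannanhua 3: OSBP in place of NPC1 (log2 -1.27), GPAM, SCAP and RABGGTA (-1.31). The count of the uptake list (NPC1) fell to 0 without a filter, at 5 FPKM, where NPC1 is not tested, and with the replicate block. That of the fatty acid list (GPAM) fell to 0 after quantile normalization, without a filter and with the replicate block. The cause was not tested. Deviations of same-numbered libraries from their breed means correlated at 0.10, -0.01 and 0.11 for numbers 1, 2 and 3, and not every library correlated best with its own number. Low depth limits the precision of SQLE and DHCR7, at 4 to 23 reads per library.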

Other observations

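The mevalonate pathway also supplies ubiquinone, the electron carrier of mitochondria. Of 15 listed genes of its other products, 10 had a row and 9 were tested, with a median log2 difference of 0.17. In edgeR 0 of 10 passed, with 1 at an unadjusted p under 0.05 (21.0% of all genes). By limma 0 passed, and 3 had an unadjusted p under 0.05, all higher in Wannanhua (14.6% of all genes). These 3 were the ubiquinone genes COQ2, COQ5 and COQ6, all named from their values in these data, and their breeds did not overlap (over all genes 20.3% were higher in Wannanhua without overlap). COQ2, which attaches the isoprenoid tail, read 33.4, 30.1 and 27.3 FPKM in the Wannanhua libraries against 13.2, 20.7 and 19.6 in the Yorkshire ones (log2 difference 0.75 ± 0.21 SE; limma adjusted p = 0.0996). COQ6, a ring hydroxylase, had a mean of 25.0 ± 3.70 FPKM in Wannanhua libraries against 15.6 ± 3.56 in Yorkshire ones (SD, n = 3; limma adjusted p = 0.133). COQ3, a methyltransferase of the route named after its values were seen, overlapped between breeds, at 12.2 to 34.1 FPKM in Wannanhua and 12.3 to 26.7 in Yorkshire.

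Of 11 genes of sterol efflux, esterification and oxysterols, all had a row and 8 were tested, with a median of -0.02. By limma 0 passed, with 1 at an unadjusted p under 0.05 (22.1% of all genes). In edgeR 0 of 10 passed, with 3 at an unadjusted p under 0.05 (21.0% of all genes). ABCA1, which exports cholesterol to lipoproteins, read 1.91, 2.41 and 1.17 FPKM in the Wannanhua libraries against 0.19, 0.83 and 0.78 in the Yorkshire ones, without overlap (log2 difference 0.82 ± 0.25 SE; limma adjusted p = 0.121). Only the 3 Wannanhua libraries reached limma's 1 FPKM for it, so ABCA1 entered that test through the breed where it was higher. APOE, a lipoprotein component, was highest in Yorkshire 2, at 17.3 FPKM, and lowest in Wannanhua 1, at 2.76 (limma adjusted p = 0.309).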
